A study of Mus musculus with 12 samples.

Results

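Glycine transfer RNAs (tRNA-Gly) were read base by base for candidate pseudouridines in hematopoietic stem and progenitor cells of old and young mice. Every row of the 6 deposited tables whose entry name starts with tRNA-Gly was taken, which gave 1969 of 28302 rows and 27 of 404 tRNA entries. Entries that held identical values in all libraries were counted once, which left 10 distinct tRNA-Gly of 213 distinct tRNAs. The anticodon GCC accounted for 13 entries and 4 distinct tRNAs, TCC for 7 entries and 1 distinct tRNA, CCC for 6 entries and 4 distinct tRNAs, and ACC for 1 entry. The 10 distinct tRNAs held 714 rows, 157 of them at T, the base where the RNA carries uridine or pseudouridine.

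All cells were labelled wildtype, and the labels give the ages only as old and young. The 4 groups were old cells with CMC, old cells in BEU buffer alone, young cells with CMC and young cells in BEU buffer alone, with 3 libraries each and 12 in all. Nothing in the labels says whether each replicate is a different mouse, and p-values here measure the spread between libraries, which may be technical. The tables hold tRNA only, so the labelled cell type could not be set against marker genes. Small RNA was demethylated with AlkB enzymes in every group. CMC is a carbodiimide that remains bound to pseudouridine through the alkaline step and stops reverse transcriptase. The stop rate is the share of a base's coverage that ends at it, in percent, and the rise is the CMC stop rate minus the BEU stop rate of the same table. The series title names pseudouridine synthase 10 (PUS10) as induced by aging.

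tRNA-Gly reads the GGN codons, and its fragments are among the most abundant in many tissues. Pseudouridine at position 55 of the T loop is found in nearly all elongator tRNAs and helps dock the T loop on the D loop. In mammals TRUB1 and PUS10 act at position 55, PUS10 also acts at position 54 of some tRNAs, PUS7 acts at position 13 and PUS3 at positions 38 and 39. These roles are background and were not measured here.

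The sequences below show which of these positions each tRNA offers. They are the deposited entries, 5′ to 3′ in DNA letters, with T13, T20, T39, T54 and T55 in capitals where the base is T. One tRNA is given for each anticodon, with GCC-1-1 and CCC-4-1 added because results at positions 8, 20, 43, 54 and 55 turn on them. Rows 18 to 38 of ACC-1-1 are not analysed here, so its rows 39 to 76 are shown.
tRNA-Gly-TCC-1-1: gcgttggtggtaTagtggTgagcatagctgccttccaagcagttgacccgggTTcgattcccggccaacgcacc
tRNA-Gly-GCC-2-1: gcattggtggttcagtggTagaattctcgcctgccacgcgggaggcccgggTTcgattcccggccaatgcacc
tRNA-Gly-GCC-1-1: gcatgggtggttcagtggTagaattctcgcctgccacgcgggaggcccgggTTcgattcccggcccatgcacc
tRNA-Gly-CCC-1-1: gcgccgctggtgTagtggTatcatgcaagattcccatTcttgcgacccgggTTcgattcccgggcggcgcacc
tRNA-Gly-CCC-4-1: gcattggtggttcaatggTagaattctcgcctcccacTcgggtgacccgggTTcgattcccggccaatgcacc
tRNA-Gly-ACC-1-1: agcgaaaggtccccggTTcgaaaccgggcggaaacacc
T13 is present in TCC-1-1, CCC-1-1 and ACC-1-1, and all 4 GCC tRNAs and CCC-2-1, CCC-3-1 and CCC-4-1 have C there. T39 is present in CCC-1-1 and CCC-4-1 alone. T54 and T55 are present in all 10. CCC-4-1 resembles GCC-2-1 more than it resembles CCC-1-1: from CCC-4-1 to GCC-2-1 the bases differ by A15G, C34G, T39G, T44A and A46G, numbered by tRNA position from the 5′ end. CCC-2-1 and CCC-3-1 differ by A9G, and CCC-3-1 and CCC-4-1 by G39T.

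The highest coverage of each distinct tRNA, summed over the 213, lay between 201980 and 767650 reads in the CMC libraries and between 533736 and 1061426 in the BEU libraries. Coverage never exceeded 8015 in any library. Rows at or 3′ of coverage of 7500 are called marked, since stops at and 3′ of that level may not all be recorded. Between 4 and 10 of the 10 tRNA-Gly reached 7500 in each BEU library. In CMC libraries it was between 0 and 9, with none in Old CMC replicate 2 and Young CMC replicate 3. Those 2 libraries therefore read every tRNA-Gly base unmarked. Only 18 T rows and 89 rows at A, C and G had coverage of at least 20 and no mark in all 12 libraries, and none of the 10 T55 rows was among them. Position 55 is therefore given below from the unmarked libraries of each row.

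**Figure D1:**
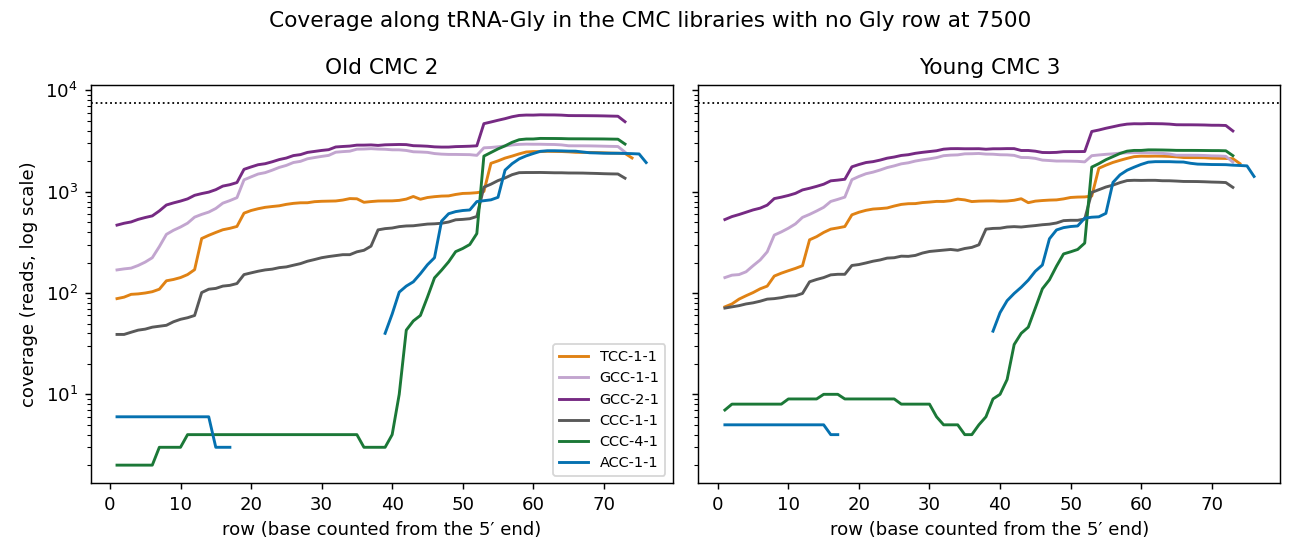
Coverage in reads (log axis) against the row, the base counted from the 5′ end, for 6 distinct tRNA-Gly in Old CMC replicate 2 and Young CMC replicate 3, with the mark at 7500 dotted. Coverage steps down on the 5′ side of T55 in all 6 except GCC-1-1, where the step is small, and CCC-4-1 falls under 10 reads over most rows 5′ of row 40.

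Several tRNA-Gly share the reads that end in them. A read that ends at a base carries the bases 3′ of it, and where these are the same in 2 tRNAs the read has the same sequence in both. The 20 bases 3′ of T55 show which tRNAs this concerns. Capitals mark bases that differ from those of GCC-2-1.
tRNA-Gly-GCC-2-1: cgattcccggccaatgcacc
tRNA-Gly-CCC-2-1: cgattcccggccaatgcacc
tRNA-Gly-CCC-3-1: cgattcccggccaatgcacc
tRNA-Gly-CCC-4-1: cgattcccggccaatgcacc
tRNA-Gly-TCC-1-1: cgattcccggccaaCgcacc
tRNA-Gly-GCC-1-1: cgattcccggccCatgcacc
tRNA-Gly-GCC-3-1: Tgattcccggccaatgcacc
tRNA-Gly-GCC-4-1: cgGttcccggccaatgcacc
tRNA-Gly-CCC-1-1: cgattcccggGcGGCgcacc
tRNA-Gly-ACC-1-1: cgaAAccGggcGGaAAcacc
tRNA-Val-AAC-1-1: cgaAAccGggcGGaAAcacc
GCC-2-1, CCC-2-1, CCC-3-1 and CCC-4-1 were identical over these bases. TCC-1-1, GCC-1-1, GCC-3-1 and GCC-4-1 each differed from them at 1 base and CCC-1-1 at 4. The ACC-1-1 stretch was that of 5 valine tRNAs, AAC-1-1, AAC-2-1, AAC-5-1, CAC-1-1 and CAC-2-1. Of the 538 tRNA-Gly rows with at least 15 bases 3′ of them, 143 had the same 3′ bases in another distinct tRNA-Gly, and 23, all in ACC-1-1, had them in a tRNA of another amino acid. The stop reads of such row pairs were equal in 2222 of 2228 comparisons, each pair of rows taken once, over libraries unmarked in both.

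At T55 of GCC-2-1 and CCC-4-1 the stop reads were 1855 in each in Old CMC replicate 2 and 1436 in each in Young CMC replicate 3. Coverage differed: GCC-2-1 had 4694 reads at T55 in Old CMC replicate 2 and 3929 in Young CMC replicate 3, and CCC-4-1 had 2245 and 1749. At position 44, which is T in CCC-4-1 and A in GCC-2-1, CCC-4-1 had 53 reads in Old CMC replicate 2 and 40 in Young CMC replicate 3. The same stops were thus divided by a much smaller coverage in CCC-4-1, with a deposited stop rate of 82.6% in Old CMC replicate 2 and 82.1% in Young CMC replicate 3. In GCC-2-1 it was 39.5% in Old CMC replicate 2 and 36.5% in Young CMC replicate 3. With these stops taken once, over the coverage of GCC-2-1 plus that of CCC-4-1 at position 44, the rate was 39.1% in Old CMC replicate 2 and 36.2% in Young CMC replicate 3. That sum was chosen after the shared reads were seen. The rates of CCC-2-1, CCC-3-1 and CCC-4-1 at positions 54 and 55 are therefore not rates of the CCC tRNAs alone.

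**Figure D2:**
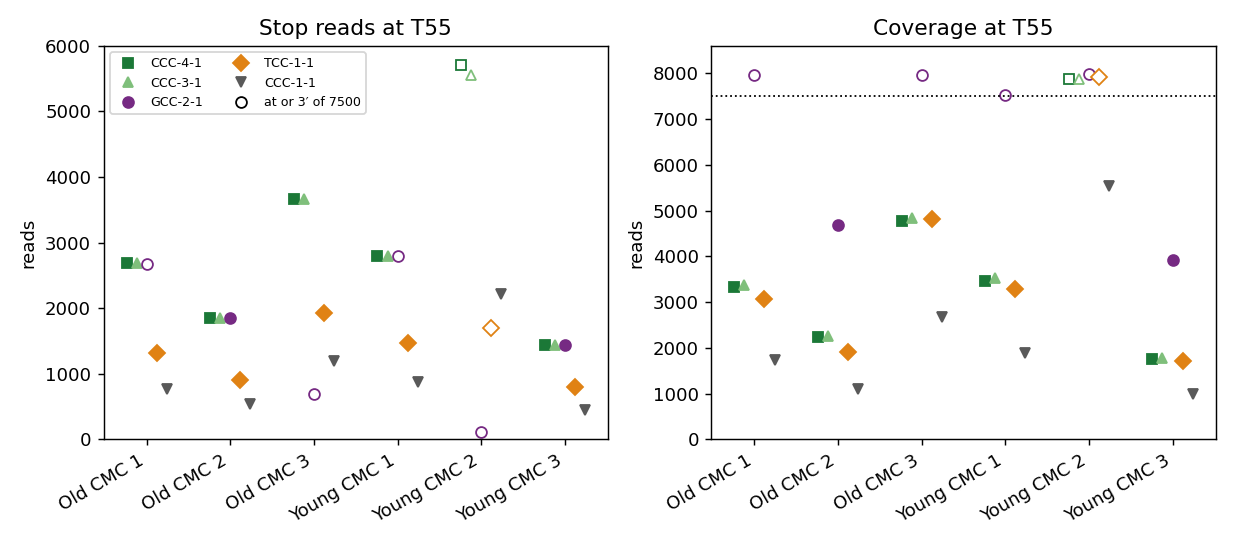
Stop reads (left) and coverage (right), both in reads, at T55 of 5 distinct tRNA-Gly in each CMC library; open symbols lie at or 3′ of coverage of 7500, the dotted line. GCC-2-1, CCC-3-1 and CCC-4-1 have the same 1855 and 1436 stop reads in Old CMC 2 and Young CMC 3, under different coverage.

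The reads at row 20, 5′ of the anticodon, show the converse for the minor GCC tRNAs. GCC-3-1 differs from GCC-2-1 by C56T and GCC-4-1 by A58G. At row 20 the coverage of GCC-3-1 was between 98.0% and 100.03% of that of GCC-2-1, and that of GCC-4-1 between 98.0% and 100.03%. At row 53, which is T55, it was between 26.2% and 71.2% for GCC-3-1 and between 29.5% and 72.9% for GCC-4-1.

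At position 55, TCC-1-1, CCC-1-1 and ACC-1-1 stopped at close to the same rate with CMC, GCC-1-1 had lower stop rates, and GCC-3-1 and GCC-4-1 had the lowest deposited rates. TCC-1-1 had CMC stop rates at T55 of 42.7%, 47.2% and 40.1% in old cells, against 1.36% and 1.22% in the 2 unmarked Old BEU libraries. In young cells TCC-1-1 had 44.4% and 46.8% at T55 in the 2 unmarked CMC libraries, against 1.73% in the 1 unmarked BEU library. The third Young CMC library, marked at that row, gave 21.3%. TCC-1-1 stop rates at T55 with CMC were thus far above those in BEU buffer at both ages, and the ages overlapped.

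CCC-1-1 had 44.2%, 48.4% and 44.6% at T55 in the Old CMC libraries, against 0.563% and 0.706% in the 2 unmarked Old BEU libraries. The Young CMC libraries had 46.2%, 40.02% and 45.2%, against 0.985% in the 1 unmarked Young BEU library. Of the 5 tRNA-Gly with 3′ bases of their own at T55, CCC-1-1 was the only one unmarked there in all 6 CMC libraries. The old and young CMC values of CCC-1-1 overlapped.

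GCC-1-1 had 12.3% and 15.8% at T55 in the 2 unmarked Old CMC libraries and 14.3% and 13.2% in the 2 unmarked Young CMC libraries. The 2 marked CMC libraries gave 11.5% in old cells and 19.9% in young cells. Every BEU library was marked at this row, with stop rates between 0.402% and 0.764%, so its rise was not measured below the coverage limit. In Old CMC replicate 2 GCC-1-1 had 428 stop reads over 2710 reads, against 900 over 1905 in TCC-1-1. The 4 libraries unmarked in both tRNAs all gave TCC-1-1 the higher stop rate at T55, with means of 45.3% in TCC-1-1 and 13.9% in GCC-1-1. Neither tRNA shares its 3′ bases with another at this row. GCC-1-1 differs from GCC-2-1 at 1 of the 20 bases 3′ of T55, as GCC-3-1 and GCC-4-1 do. In Old CMC replicate 2 the coverage at T54 was 2284 reads in GCC-1-1 and 2837 in GCC-2-1. The stop reads at T55 were 428 and 1855. Whether the coverage of GCC-1-1 also includes reads of GCC-2-1 was not tested, so its low rate may not be that of GCC-1-1 alone. The smallest p that an exact permutation of 4 differences allows is 0.125, which this comparison gave (adjusted p = 0.167 over 60 comparisons).

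GCC-2-1, the tRNA of 8 entries, was unmarked at T55 in Old CMC replicate 2 and Young CMC replicate 3 only, with 39.5% and 36.5%. The other 4 CMC libraries, all marked, gave 33.6%, 8.67%, 37.2% and 1.42%, and the 6 BEU libraries, all marked, stayed under 1%. GCC-3-1 had 1.64%, 2.19% and 1.48% at T55 in Old CMC libraries and 2.98% and 2.95% in the unmarked Young CMC libraries. Its marked BEU libraries spanned 0.616% to 3.99%, which covers the CMC values. GCC-4-1 had between 1 and 7 stop reads at T55 in each CMC library, a stop rate of at most 0.289%. Much of the coverage of GCC-3-1 and GCC-4-1 at T55 is reads that end 5′ of it, where their coverage is that of GCC-2-1, so these are not rates of the 2 tRNAs alone.

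CCC-2-1, CCC-3-1 and CCC-4-1, whose stop reads at T55 are those of GCC-2-1, had stop rates of 75.6% to 82.6% in the unmarked CMC libraries and 5.36% to 7.79% in BEU libraries. ACC-1-1, whose 3′ bases are those of the 5 valine tRNAs, had 48.5%, 46.5% and 50.4% in Old CMC libraries, against 2.96% and 4.10% in the 2 unmarked Old BEU libraries. In young cells ACC-1-1 had 48.3% and 50.4% in the 2 unmarked CMC libraries, against 2.87% and 3.70% in the 2 unmarked BEU libraries. ACC-1-1 had 7 and 5 reads at its first base in Old CMC replicate 1 and Young CMC replicate 3, against 2804 and 1233 at T55.

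**Figure D3:**
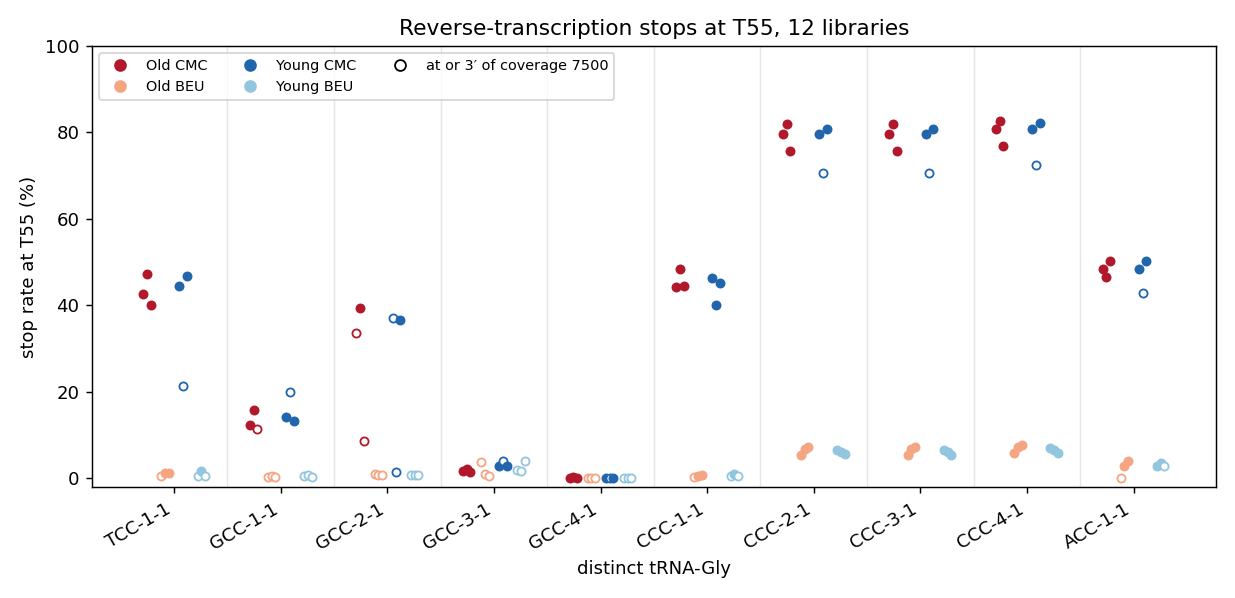
Stop rate in percent at T55 of the 10 distinct tRNA-Gly, with 1 point for each of the 12 libraries; open circles lie at or 3′ of coverage of 7500. Filled CMC points lie between 40.02% and 50.4% in TCC-1-1, CCC-1-1 and ACC-1-1, between 12.3% and 15.8% in GCC-1-1, at 39.5% and 36.5% in GCC-2-1 and above 75% in the 3 CCC tRNAs that share its stop reads.

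Stop rates at position 54 lay far below those at position 55 in TCC-1-1, CCC-1-1 and GCC-1-1. CCC-1-1 had 5.49%, 6.33% and 4.66% at T54 in Old CMC libraries, against 0.333% and 0.383% in the unmarked Old BEU libraries, and 3.98%, 3.30% and 3.17% in Young CMC libraries, against 0.947% in the unmarked Young BEU library. TCC-1-1 had CMC stop rates between 2.10% and 3.95% at T54 and unmarked BEU stop rates between 0.638% and 1.65%. GCC-1-1 stayed between 0.609% and 0.849% in its 4 unmarked CMC libraries. GCC-3-1 and GCC-4-1 had between 1 and 3 stop reads at T54 in each CMC library. ACC-1-1 had 5.68% to 7.79% with CMC, against 2.96% to 4.59% in the unmarked BEU libraries.

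CCC-4-1 had 16.2%, 22.0% and 17.4% at T54 in Old CMC libraries, against 5.92%, 6.67% and 6.73% in Old BEU libraries. The Young CMC libraries had 19.1%, 14.2% and 13.8%, against 7.10%, 8.29% and 6.46% in Young BEU libraries. Every CMC library lay above every BEU library. The mean rise was 12.07 percentage points in old cells (edgeR's quasi-likelihood test, Benjamini-Hochberg adjusted p = 5.451e-09) and 8.41 in young cells (adjusted p = 1.826e-06 by the same test). A row was called when the adjusted p was under 0.05, the mean rise at least 10 points and the rise seen in all 3 replicates, so T54 of CCC-4-1 was called in old cells and missed the size in young cells. T54 of CCC-2-1 rose by a mean of 11.50 points in old cells and 7.81 in young cells, and that of CCC-3-1 by 11.48 in old cells and 7.84 in young cells. Without Old replicate 2 their mean rises in old cells were 9.88 and 9.86 points, under the size required. These 3 rows hold the same stop reads as T54 of GCC-2-1, for example 85 in each in Old CMC replicate 2. GCC-2-1 itself had 1.91% and 2.996% in its 2 unmarked Old CMC libraries and 2.65% and 1.73% in its 2 unmarked Young CMC libraries. With the stops taken once over both tRNAs the rates were 1.89% and 2.94% in old cells and 2.60% and 1.70% in young cells.

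Under this rule, 4 of the 18 tested tRNA-Gly T rows were called in old cells, against 19.7% of the 1179 T rows of all tRNAs. In young cells 1 of the 18 was called, against 17.8% of all T rows. Of the 89 tested tRNA-Gly rows at A, C and G, 4 were called in old cells, against 1.1% of all such rows, and 0 in young cells, against 0.661%. At those young rows DESeq2 and limma on log odds also called 0, and 7 of the 89 had an unadjusted p under 0.05 in edgeR. Of these 7, 4 had a positive mean rise, of at most 2.8 points. The tested T rows rose by a median of 3.21 points in old cells and 0.94 in young cells, against 2.15 and 1.70 over all tested T rows. Of the 8 rows called in old cells, only T13 of CCC-1-1 has 3′ bases of its own. Among rows with 3′ bases of their own, 1 of 6 T rows was called in each age, against 20.3% of 747 in old cells and 18.7% in young cells.

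With every row of sufficient coverage in the edgeR fit, marked or not, 17 of 124 tRNA-Gly T rows were called in old cells, against 20.3% of all T rows, and 11 of 124 in young cells, against 18.8%. These added T55 of TCC-1-1, GCC-1-1, GCC-2-1, CCC-1-1, CCC-2-1, CCC-3-1, CCC-4-1 and ACC-1-1, T13 of TCC-1-1 and T39 of CCC-1-1 at both ages, and T20 of GCC-2-1, GCC-3-1 and GCC-4-1 in old cells, where all Old BEU libraries were marked. At A, C and G the calls were 2 of 482 in old cells, against 0.61%, and 0 in young cells, against 0.368%. With limma on log odds and marked libraries set to missing, 12 of 82 T rows were called in old cells, against 20.3%, and 5 of 54 in young cells, against 18.9%. That fit called 2 of 297 rows at A, C and G in old cells, against 0.707%, and 0 of 194 in young cells, against 0.535%.

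Position 13 of the D arm carried the one called stop that was read below the coverage limit in all 12 libraries and without shared reads. CCC-1-1 had stop rates of 37.1%, 37.6% and 35.4% at T13 in Old CMC libraries, against 1.87%, 2.00% and 2.19% in Old BEU libraries. The Young CMC libraries had 22.4%, 29.1% and 20.2%, against 1.32%, 1.40% and 1.40% in Young BEU libraries. Every CMC library lay above every BEU library, and every Old CMC library above every Young CMC library. The mean rise was 34.68 points in old cells (edgeR's quasi-likelihood test, adjusted p = 3.891e-19) and 22.49 in young cells (adjusted p = 1.985e-18 by the same test).

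The rise at T13 of CCC-1-1 was 12.19 ± 2.77 percentage points (SE, 3 libraries per group) larger in old cells. Stops without CMC were also more frequent in old cells, and the test of the age difference, which compares odds with CMC against odds in BEU buffer, did not call it (edgeR interaction, unadjusted p = 0.579, adjusted p = 0.889). With CMC alone, the stop rate was 12.83 points higher in old cells (edgeR, unadjusted p = 0.000608, adjusted p = 0.0654 over the 215 T rows of the age test). The adjusted p was 0.0402 with a coverage minimum of 50, 0.0438 over all entries and 0.0109 without Young replicate 2, and it ranged up to 0.695, with DESeq2. Of the 215 T rows, 14.4% had Old CMC and Young CMC stop rates that did not overlap, and 13.5% had rises that did not overlap.

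TCC-1-1 had 46.02%, 49.9% and 45.9% at T13 in Old CMC libraries, against 4.79% and 3.67% in the 2 unmarked Old BEU libraries. The Young CMC libraries had 42.1%, 41.2% and 43.3%, against 3.42%, 3.32% and 2.86% in Young BEU libraries. The Old BEU library marked at this row gave 0.0125%, and leaving it out of a limma fit on log odds gave adjusted p = 1.525e-07 in old cells and 8.646e-08 in young cells. The Old CMC values of TCC-1-1 lay above the Young CMC values, as in CCC-1-1, by a mean of 5.06 points (limma, unadjusted p = 0.211). TCC-1-1 stopped more often than CCC-1-1 at T13 in all 6 CMC libraries, with means of 44.7% and 30.3% (exact permutation test, p = 0.031, adjusted p = 0.104 over 60 comparisons). ACC-1-1 had 5 to 27 reads at T13 in the CMC libraries and reached a coverage of 20 in Young CMC replicate 2 only, with 3.70%.

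**Figure D4:**
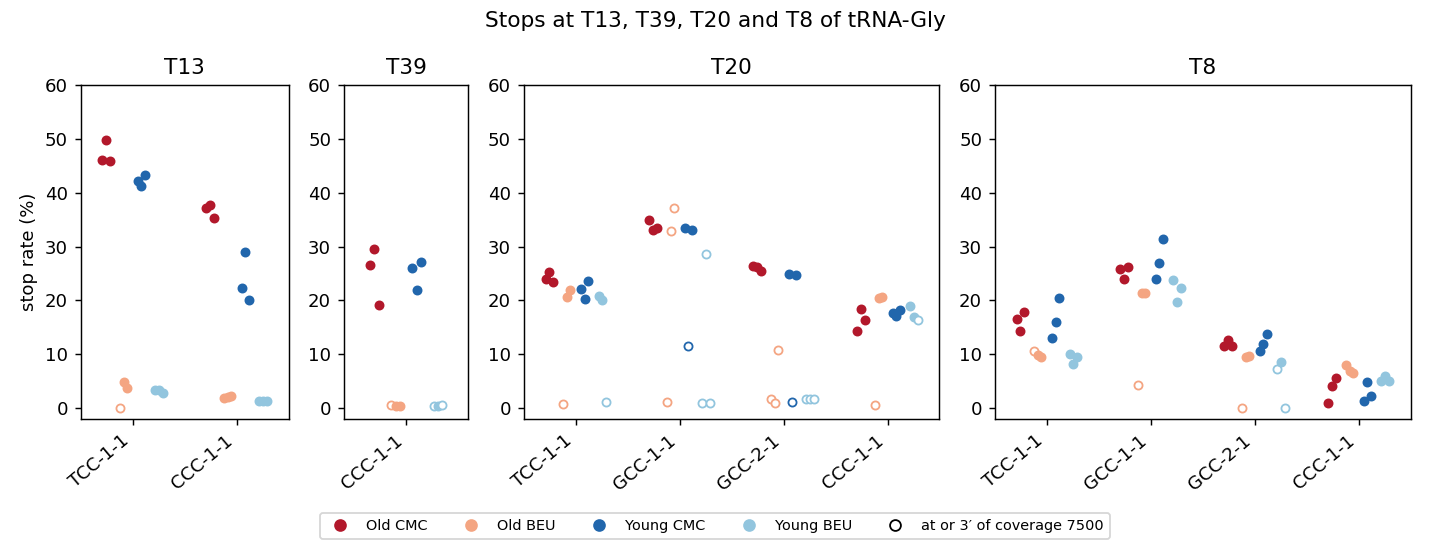
Stop rate in percent at T13, T39, T20 and T8 of the tRNA-Gly that read them, with 1 point for each of the 12 libraries; open circles lie at or 3′ of coverage of 7500. CMC points stand above BEU points at T13 and T39, and filled CMC and BEU points overlap or lie close together at T20 and T8 apart from TCC-1-1 at T8.

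In the anticodon stem, CCC-1-1 had stop rates of 26.5%, 29.5% and 19.2% at T39 in Old CMC libraries, against 0.375% and 0.331% in the 2 unmarked Old BEU libraries. Young CMC libraries had 26.01%, 22.0% and 27.2%, against 0.372% in the unmarked Young BEU library. The 2 ages overlapped, and CMC values stood far above BEU values at both. With all libraries in the edgeR fit, marked or not, the adjusted p was 1.814e-07 in old cells and 1.876e-07 in young cells. At T38, the base before it, CCC-1-1 had 8.14%, 8.62% and 6.65% in Old CMC libraries and 9.55%, 7.39% and 6.02% in Young CMC libraries, against 1.46% and 1.496% in the unmarked Old BEU libraries and 2.26% in the unmarked Young BEU library. CCC-4-1, the other tRNA-Gly with T39, had as few as 3 reads there, so its CMC values of 5.56% to 33.3% rest on few reads.

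T20 of the D loop and T8 stopped reads with and without CMC. TCC-1-1 had CMC stop rates of 20.2% to 25.2% at T20 and unmarked BEU stop rates of 20.1% to 22.0%. CCC-1-1 had 14.3% to 18.4% with CMC and 16.9% to 20.7% in the unmarked BEU libraries. GCC-1-1 had 33.0% to 34.9% in its 5 unmarked CMC libraries and GCC-2-1 24.8% to 26.4%, and neither had an unmarked BEU library at T20. These 2 tRNAs were unmarked in too few libraries for a rise at T20 to be read.

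At T8, GCC-1-1 had 24.01% to 31.4% with CMC and 19.7% to 23.9% in the 5 unmarked BEU libraries, so every CMC library lay above every unmarked BEU library, by little. TCC-1-1 had 12.97% to 20.4% with CMC and 8.17% to 10.1% in the unmarked BEU libraries. CCC-1-1 went the other way, with 0.870% to 5.64% at T8 with CMC and 5.01% to 8.04% in BEU buffer. Its T8 fell by a mean of 3.65 points in old cells (edgeR, adjusted p = 0.0370) and the mean difference in young cells was −2.49 (adjusted p = 0.175 by the same test). Coverage was as low as 48 reads, so the lower CMC rates rest on few stop reads, and the lowest deposited count is 1.

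Outside positions 13, 20, 39, 54 and 55, 107 tRNA-Gly T rows had at least 2 unmarked CMC libraries. Their median CMC stop rate was under 5% in 59 rows, from 5% to 10% in 32 and at least 10% in 16. For the 77 that also had at least 2 unmarked BEU libraries, the median BEU stop rate was subtracted from the median CMC stop rate. This difference was at least 10 points in 0 rows and lay between −3.04 and 8.08 points. The rise in a single pair could be larger. At T8 of TCC-1-1, which is among these rows, it was 10.95 points in Young replicate 3. The best-covered of these rows in each anticodon and arm were low in the tRNA-Gly with TCC, GCC and CCC anticodons. In TCC-1-1 the CMC stop rates were 2.01% to 3.88% at T25, 2.26% to 3.93% at T29 and 3.02% to 3.98% at T60. In GCC-1-1 they were 4.56% to 6.04% at T25 and 1.40% to 3.19% at T28, and in GCC-2-1 3.33% and 4.10% at T59. CCC-1-1 had 3.69% to 6.63% at T25, 0.946% to 3.06% at T32 and 2.296% to 4.02% at T60. The T at row 48 of ACC-1-1 had 10.5% to 17.9% with CMC and 9.57% to 14.3% in BEU buffer, so the groups overlapped, and it shares its 3′ bases with the 5 valine tRNAs. T11 of ACC-1-1 had 1 CMC library with enough reads, at 3.70%.

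Rows at A, C and G stopped reads in BEU buffer as well. Of 457 tRNA-Gly rows with at least 3 unmarked BEU libraries, 20 had a median BEU stop rate of at least 20%, and 4 of these were T. The 4 called rows at A, C and G in old cells were G43 of CCC-2-1, CCC-3-1 and CCC-4-1, which share 1 set of stop reads, and the C at row 41 of ACC-1-1, which shares its 35 3′ bases with 3 valine tRNAs. CCC-4-1 had 64.8%, 76.7% and 62.0% at G43 in Old CMC libraries, against 41.4%, 51.4% and 50.8% in Old BEU libraries. In young cells the CMC libraries had 57.5%, 52.7% and 58.1%, against 45.1%, 51.2% and 46.05% in Young BEU libraries. The mean rise was 19.98 points in old cells (edgeR, adjusted p = 0.00247) and 8.63 in young cells (adjusted p = 0.241 by the same test), with as few as 31 reads. Without Old replicate 1 the edgeR adjusted p in old cells was 0.0569 for CCC-4-1, 0.166 for CCC-2-1 and 0.151 for CCC-3-1.

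The C at row 41 of ACC-1-1 had 25.9%, 32.4% and 26.6% in Old CMC libraries, against 13.3%, 19.1% and 13.8% in Old BEU libraries. In young cells the CMC libraries had 18.4%, 14.9% and 16.7%, against 16.04%, 22.1% and 12.3% in Young BEU libraries. Old CMC libraries stood above all others, and the young groups overlapped. The mean rise was 12.88 points in old cells (edgeR, adjusted p = 0.00164) and −0.18 in young cells (adjusted p = 0.99 by the same test). Rows at A, C and G were outside the test of the age difference.

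At the main settings no tRNA-Gly row passed a test of age, and T13 of CCC-1-1 passed the comparison of CMC stop rates only under the alternatives given with it. Of the 2 tRNA-Gly T rows in the test of the age difference of the rise, T13 of CCC-1-1 and T54 of CCC-4-1, edgeR called 0, with 0 at an unadjusted p under 0.05, against 1.4% of the 215 T rows tested. DESeq2 and limma on log odds also called 0. The mean rise at T54 of CCC-4-1 was 3.66 ± 2.47 points larger in old cells (SE, 3 libraries per group; edgeR interaction, unadjusted p = 0.106, adjusted p = 0.52), and its ages overlapped. Position 55 of tRNA-Gly entered this test only with marked libraries in the fit or set to missing, where 0 of 16 and 0 of 7 T rows passed. Over all tRNAs 0 of 439 and 0 of 367 T rows passed at these settings. The test therefore cannot decide whether position 55 of tRNA-Gly differs with age.

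Without CMC, 60 tRNA-Gly rows stopped at a mean rate of at least 5% and were compared between ages. Of these, edgeR called 0, against 5.6% of the 893 rows tested, and 2 had an unadjusted p under 0.05. DESeq2 and limma on log odds called 0 as well. The 2 were T8 and A14 of CCC-1-1. A14 had 5.90%, 7.15% and 8.05% in Old BEU libraries, against 4.89%, 5.46% and 4.99% in Young BEU libraries (edgeR, unadjusted p = 0.0126, adjusted p = 0.136). T8 was 1.88 points higher in Old BEU libraries (unadjusted p = 0.031, adjusted p = 0.233 by the same test). The largest positive differences were at A46 of CCC-4-1, CCC-2-1 and CCC-3-1, of 5.16, 4.43 and 4.10 points, which again share their stop reads. The most negative ones were at T44 of CCC-4-1 with −3.88 points and at the G of rows 47 and 46 of ACC-1-1 with −3.25 and −2.60.

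At 7 single positions tRNA-Gly was compared with the other amino acids. Over the T13 rows unmarked in each CMC library, the mean CMC stop rate was 35.8% in 3 tRNA-Gly and 20.3% in 51 tRNAs of other amino acids, and tRNA-Gly was higher in 6 of 6 libraries (exact permutation test, p = 0.031, the smallest it can give; adjusted p = 0.0365 over 7 positions). ACC-1-1 entered this mean in Young CMC replicate 2 only, and in the other 5 libraries it is that of TCC-1-1 and CCC-1-1. The same test found the CMC stop rate of tRNA-Gly higher in 6 of 6 libraries at T8, with 13.3% and 5.26%. It was lower in tRNA-Gly in 6 of 6 libraries at T16, with 10.2% and 16.5%, and at T54, with 7.46% and 14.2%.

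The CMC stop rate includes stops that occur without CMC, and the difference in the rise passed the test at none of the 7 positions. At T13 the mean rise was 32.6 points in tRNA-Gly and 17.75 in other amino acids, and at T54 7.75 and 13.7. Both kept their direction in 6 of 6 pairs (exact permutation test, p = 0.031, adjusted p = 0.0547). At T8 and T16 the rise gave another picture. At T8 the mean rise was 0.936 points in tRNA-Gly and 1.56 in other amino acids (exact permutation test, p = 0.844). At T16 it was 2.92 points in tRNA-Gly and −3.26 in other amino acids, higher in tRNA-Gly in 6 of 6 pairs (exact permutation test, p = 0.031, adjusted p = 0.0547 over 7 positions). Over rows with 3′ bases of their own, the rise at T16 was 0.839 points in tRNA-Gly and −4.465 in other amino acids. It was higher in tRNA-Gly in 5 of 5 pairs (exact permutation test, p = 0.0625, adjusted p = 0.219). With rows that have 3′ bases of their own on both sides, the differences in CMC stop rate were 16.22 points at T13, 7.76 at T8, −9.33 at T16 and −7.85 at T54, each in the same direction in 6 of 6 libraries (exact permutation test, p = 0.031, adjusted p = 0.0547). GCC-2-1, GCC-3-1 and GCC-4-1 count as 3 tRNAs there although they hold nearly the same reads at T8 and T16. Without GCC-3-1 and GCC-4-1, left out after the shared reads were seen, the differences were 8.47 points at T8, −9.19 at T16 and −6.74 at T54 (exact permutation test, p = 0.031, adjusted p = 0.0438). GCC-1-1 was kept, although whether its coverage includes reads of GCC-2-1 was not tested.

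At T55 the direction of the difference in CMC stop rate depended on which rows were taken. Over all unmarked T55 rows the mean CMC stop rate was 43.6% in tRNA-Gly and 36.6% in other amino acids, higher in tRNA-Gly in 6 of 6 libraries (exact permutation test, p = 0.031, adjusted p = 0.0365). With rows that have 3′ bases of their own, it was 24.6% in tRNA-Gly and 30.3% in other amino acids, and tRNA-Gly was higher in 1 of 6 libraries (exact permutation test, p = 0.219, adjusted p = 0.255). Without GCC-3-1 and GCC-4-1, whose coverage includes the reads of GCC-2-1, it was 37.1% in 3 tRNA-Gly and 30.3% in other amino acids, and tRNA-Gly was higher in 6 of 6 libraries (exact permutation test, p = 0.031, adjusted p = 0.0438). GCC-1-1, whose coverage was not tested for reads of GCC-2-1, is among the 3. The rise over rows with 3′ bases of their own was 42.4 points in tRNA-Gly and 24.8 in other amino acids in the 3 pairs that could be read, higher in tRNA-Gly in 3 of 3 (exact permutation test, p = 0.25, the smallest that 3 pairs allow). Which T55 rows are unmarked differs between libraries, and this changes the mean too.

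Over rows unmarked in all 12 libraries, the mean rise of tRNA-Gly minus that of other amino acids was 12.92 ± 4.92 points (SD, n = 6 pairs of libraries) for the D arm, −9.59 ± 4.46 for positions 27 to 32 and −6.37 ± 2.27 for position 54. Each had its sign in 6 of 6 pairs (exact permutation test, p = 0.031, adjusted p = 0.0417 over 4 position groups). The D arm rests on T11 and T13 of CCC-1-1. It sets them against 204 T rows at any D-arm position of other amino acids, with a mean rise of 1.57 points. At T13 alone other amino acids rose by 17.75 points, over rows unmarked in each pair. Positions 27 to 32 rest on T28 of CCC-2-1 and CCC-3-1, against 127 T rows at any of these positions. The D arm and positions 27 to 32 therefore do not set like positions against each other. Position 54 rests on the 3 CCC rows that share the stop reads of GCC-2-1.

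Between anticodons no difference passed its test, and at single positions none could pass. Over rows unmarked in all 12 libraries, only the remaining positions outside the arms could be compared, in 6 pairs of anticodons, and 0 were called by the exact permutation test, with 0 at an unadjusted p under 0.05. At single positions, 60 comparisons of CMC stop rates had a smallest adjusted p of 0.104, and with 6 libraries no raw p can be below 0.031. Too few of the 60 had all 6 libraries for any adjusted p to fall under 0.05. The exact permutation test therefore cannot decide these differences. T8 of GCC-1-1 exceeded T8 of GCC-2-1 in 6 of 6 CMC libraries, with means of 26.4% and 11.98%, although the 2 tRNAs differ only by G5T and C68A. GCC-1-1 was also higher at T20, with 33.6% and 25.5%, T16, with 12.97% and 8.30%, and T11, with 8.89% and 4.625%. Each held in 5 of 5 libraries. It was higher in 0 of 4 libraries at T54 and 0 of 2 at T55. Whether the coverage of GCC-1-1 includes reads of GCC-2-1 was not tested, so these may not be rates of the 2 tRNAs alone. Their mean rises at T8 were 4.86 and 2.80 points in the 3 pairs that could be read, higher in GCC-1-1 in 2 (exact permutation test, p = 0.5). T8 of TCC-1-1 exceeded T8 of CCC-1-1 in 6 of 6 CMC libraries, with means of 16.4% and 3.20%. The mean rises were 6.89 and −2.25 points, higher in TCC-1-1 in 5 of 5 pairs (exact permutation test, p = 0.0625, the smallest that 5 pairs allow). The difference between TCC-1-1 and CCC-1-1 at T55 was −1.47 ± 2.15 points (SD, n = 5 libraries), within its spread.

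The share of reads that reached the 5′ end depends on which reads an entry holds. In Old CMC replicate 2 the coverage before the first base was 428 reads in GCC-2-1, or 7.46% of its highest coverage (Wilson 95% interval 6.81% to 8.17%). In Young CMC replicate 3 it was 485 reads, or 10.3% (9.48% to 11.2%). TCC-1-1 had 3.16% (2.54% to 3.92%) in Old CMC replicate 2 and 2.76% (2.16% to 3.52%) in Young CMC replicate 3. CCC-1-1 had 2.39% (1.74% to 3.28%) in Old CMC replicate 2 and 5.09% (4.02% to 6.43%) in Young CMC replicate 3. GCC-1-1 had 5.12% (4.38% to 5.98%) in Old CMC replicate 2 and 5.39% (4.56% to 6.36%) in Young CMC replicate 3. GCC-3-1 and GCC-4-1 had 18.3% and 18.5% in Old CMC replicate 2 and 22.2% and 21.2% in Young CMC replicate 3, with 428 reads each in Old CMC replicate 2, the number in GCC-2-1, over a smaller coverage. These intervals cover counting error only, since the reads carry no molecular identifiers.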

How the data were processed

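Per the labels' protocols, RNA under 200 nt was purified, demethylated, treated with CMC or with its BEU buffer alone and copied with SuperScript III. Bowtie, Bowtie2 2.3.5 and the mouse build mm10 are listed in the submitters' processing notes with no roles. The definition of a stop: not given in the sources used here. Per the file headers, the deposited tables give coverage, a count of reads over each base, with the other measure, the stop reads, and the stop rate, a percent equal to 100 times stop reads over coverage. The lowest deposited coverage and stop read count are 1.

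edgeR 4.0.16 (R 4.3.3) tested stop and read-through counts by quasi-likelihood, with the 12 libraries in 1 fit over all distinct tRNAs, a term for each library and a log-odds term for each group. Rows needed coverage of at least 20 and no mark in any library. p-values were adjusted by Benjamini-Hochberg over the whole table, for T and other bases separately. The age difference was the interaction, at T rows with a rise of at least 10 points averaged over the 6 pairs, and BEU stops were compared at rows with a mean of at least 5%. Groups of rows were compared by two-sided exact permutation (sign changes) over libraries or pairs, computed in Python with figures in matplotlib. Alternatives used limma 3.58.1 on log2((stops + 0.5)/(read-through + 0.5)) and DESeq2 1.42.0. The tests were also run on simulated counts, with rows and libraries drawn independently. That leaves out the shared reads and the joint deviations of libraries seen here.

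Named rows are T54 and T55 of every distinct tRNA-Gly, called rows, the best-covered T row of each anticodon and position group, and the 3 highest and 3 lowest age differences; T8, T16, T20, T38 and A14 were added after their values were seen. The members and lists were chosen with earlier results of these data known. Single positions and rows with 3′ bases of their own were chosen after the coverage limit and the shared reads were seen. Same-numbered libraries deviated together in some cases and apart in others (correlations −0.52 to 0.393), so no replicate block was used. Differently numbered libraries spanned −0.509 to 0.664. The highest was between Old BEU replicate 1 and Young BEU replicate 3, the libraries with the most summed coverage. The rise takes the CMC and BEU library of 1 table. Entry names matched no gene table used here, so no genome coordinates are given. The tRNA-Gly level with age was not computed, because every distinct tRNA-Gly reached 7500 in a BEU library.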

Additional observations from a re-analysis of the deposited data

How the results depend on the processing

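Of the 4 tRNA-Gly T rows called in old cells, the count was 17 with all rows in the fit, marked or not, 12 with limma on log odds and marked libraries missing, and 2 to 4 when a replicate number was left out, with 2 without Old replicate 2. The 1 call in young cells became 2 with a coverage minimum of 10, 11 with all rows and 5 with limma and marked libraries missing; it was 1 with each replicate number left out. These alternatives test more rows by construction. The 4 calls at A, C and G in old cells became 2 with all rows, with limma on log odds, with limma and marked libraries missing, with 1 subtracted and with DESeq2, and 1 to 4 with a replicate number left out. Limited to rows with 3′ bases of their own, the calls at T rows with all rows were 9 of 85 in old cells and 6 of 85 in young cells. The shares over such rows of all tRNAs were 20.1% and 18.6%. With limma and marked libraries missing the calls were 5 of 56 in old cells, against 20.4%, and 2 of 28 in young cells, against 19.4%. The 3 position groups in which tRNA-Gly differed from other amino acids became 6 with all rows and 0 with any replicate left out, where 5 pairs cannot give a p below 0.0625. On log2 odds positions 27 to 32 were not called (exact permutation test, adjusted p = 0.125), and with a coverage minimum of 50 they could not be compared. The difference in CMC stop rate at T55 reversed to −5.67 points over rows with 3′ bases of their own, and was 6.80 points when GCC-3-1 and GCC-4-1 were also left out. The replicate block left every count as it was: 4 and 1 calls at T rows in old and young cells, 4 and 0 at A, C and G, and 0 for either age test. No paired analysis was possible for the comparisons of tRNA-Gly with other amino acids or between anticodons beyond the 6 pairs of libraries they already use. For single rows and positions, 407 values kept their direction and side of the threshold, 42 kept their direction only and 5 newly passed. At least 4 tRNA-Gly were marked in each BEU library.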
